A study of Mus musculus with 12 samples.

Results

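The axon guidance families comprised 65 of the 18193 genes measured with a gene symbol of their own. They were chosen by symbol alone, as the Eph receptors and ephrins, the semaphorins and plexins, the Robo receptors and Slits, and the Unc5 receptors and netrins. Where a gene had several probe sets, the brightest on average across the 12 arrays stood for it. The set held 9 Eph A and 4 Eph B receptors, 5 ephrin A and 3 ephrin B ligands, 7 secreted class 3 semaphorins, 13 membrane-bound semaphorins, 9 plexins, 4 Robo receptors, 3 Slits, 4 Unc5 receptors and 4 netrins. Ephb2 was not among the genes named by a probe set of its own and is not described here.

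These families carry short-range and diffusible signals that steer cells and growing processes. Eph receptors are receptor tyrosine kinases that bind ephrins on neighbouring cells, where ephrin A ligands are held by a lipid anchor and ephrin B ligands span the membrane, and both partners can signal. Semaphorins act through plexins, often with a neuropilin as co-receptor, Slits act through Robo receptors, and netrins act through Dcc and Unc5 receptors. In the early embryo the same systems set tissue boundaries in neural tube and somites and guide blood vessels, with plexin D1 and Robo4 known from endothelium and the pair of ephrin B2 and EphB4 from the separation of arteries and veins.

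Expression was measured in cells of mouse embryos at embryonic day 8.0 on a mixed C57BL/6 and FVB background. All embryos carried the ER71 EYFP reporter, EYFP being a yellow fluorescent protein, and were wild-type or mutant for ER71, an ETS-family transcription factor now called Etv2 that blood and endothelium need to form. Trypsin-released cells were sorted by fluorescence into EYFP-positive and EYFP-negative fractions, referred to as positive and negative cells, which gave 4 groups of 3 arrays: wild-type positive, wild-type negative, mutant positive and mutant negative. The reporter line is known to use sequence from upstream of Etv2, although the labels do not give it, nor the nature of the mutation. Whether the 3 samples of a group were separate embryos or pools is also not given, so the spread that p-values rest on may be technical. RNA went through 2 rounds of amplification in every sample. Single arrays are written WP1 to WP3 (wild-type positive), WN1 to WN3 (wild-type negative), MP1 to MP3 (mutant positive) and MN1 to MN3 (mutant negative). Values are log2 expression values from RMA (robust multi-array average), so a difference of 1 is a 2-fold change, and levels of different genes are not compared because each probe set has its own response.

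Etv2 had values of 10.70 to 11.36 on the wild-type positive arrays and 7.24 to 7.85 on the other 9. The mean level of 12 endothelial markers was at least 9.72 in wild-type positive, 7.35 to 7.47 in mutant positive and 6.80 to 6.96 in negative cells of either genotype. The 7 primitive erythroid markers measured had 10.7 to 11.5 in wild-type positive, 6.02 to 8.19 in wild-type negative, 5.83 to 5.92 in mutant positive and 5.92 to 7.62 in mutant negative cells. The 10 heart markers had 11.5 to 11.8 in mutant positive cells against 9.36 to 10.3 in wild-type positive cells, and 8 lateral plate and allantois markers had 9.60 to 9.69 against 8.56 to 8.82. The 8 neural ectoderm markers had 7.48 to 8.62 in wild-type positive and 7.49 to 8.49 in mutant positive cells, below the 9.70 to 10.3 of negative cells. The 8 paraxial mesoderm markers followed the same order, at 7.87 to 7.95, 7.97 to 8.2 and 8.92 to 9.41. The Y-linked gene Eif2s3y was at 10.8 on WP1 and 11.2 on WN1 and at 4.11 to 4.53 on all others. Afp, which yolk sac endoderm makes, was at 11.98 on MP1 and at 5.02 and 4.04 on MP2 and MP3. The difference between 3′ and 5′ actin probe sets, a sign of RNA integrity, was 1.40 to 1.62 log2 in mutant positive cells and 1.54 to 3.14 in the other groups. In mutant negative cells it was 1.87 to 2.72, without overlap with mutant positive cells. The part of RNA integrity in the mutant sort differences was not tested.

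The stretch before the transcription start is shown for 4 genes of the families that were lower in mutant positive cells (Plxnd1, Plxnc1, Robo4 and Sema3g) and 2 that were higher (Ephb1 and Efnb1), because ETS factors such as Etv2 bind DNA around a GGAA core. The sequences are the 250 bases before the start, from RefSeq on GRCm38.p6, written in the direction of the gene, with each GGAA, or TTCC where the core lies on the other strand, in capitals.
Plxnd1, chr6:115995006-115995255, minus strand: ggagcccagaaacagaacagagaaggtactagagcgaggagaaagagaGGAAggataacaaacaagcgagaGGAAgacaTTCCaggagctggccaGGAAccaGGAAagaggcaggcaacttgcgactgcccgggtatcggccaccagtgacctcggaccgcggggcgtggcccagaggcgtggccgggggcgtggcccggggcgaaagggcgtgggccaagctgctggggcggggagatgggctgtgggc
Plxnc1, chr10:94944846-94945095, minus strand: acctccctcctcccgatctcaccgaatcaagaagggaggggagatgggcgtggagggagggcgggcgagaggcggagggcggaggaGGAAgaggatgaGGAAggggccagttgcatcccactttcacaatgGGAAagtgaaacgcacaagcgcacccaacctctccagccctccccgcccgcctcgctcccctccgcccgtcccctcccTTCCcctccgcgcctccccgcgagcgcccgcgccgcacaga
Robo4, chr9:37401722-37401971, plus strand: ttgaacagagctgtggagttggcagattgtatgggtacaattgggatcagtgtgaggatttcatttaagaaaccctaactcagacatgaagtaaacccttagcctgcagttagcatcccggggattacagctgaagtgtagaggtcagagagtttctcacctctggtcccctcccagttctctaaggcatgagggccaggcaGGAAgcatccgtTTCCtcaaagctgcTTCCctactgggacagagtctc
Sema3g, chr14:31217623-31217872, plus strand: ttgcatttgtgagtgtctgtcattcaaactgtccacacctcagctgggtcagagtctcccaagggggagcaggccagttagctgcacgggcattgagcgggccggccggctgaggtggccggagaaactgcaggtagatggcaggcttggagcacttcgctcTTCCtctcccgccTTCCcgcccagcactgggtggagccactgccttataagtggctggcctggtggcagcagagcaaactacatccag
Ephb1, chr9:102354694-102354943, minus strand: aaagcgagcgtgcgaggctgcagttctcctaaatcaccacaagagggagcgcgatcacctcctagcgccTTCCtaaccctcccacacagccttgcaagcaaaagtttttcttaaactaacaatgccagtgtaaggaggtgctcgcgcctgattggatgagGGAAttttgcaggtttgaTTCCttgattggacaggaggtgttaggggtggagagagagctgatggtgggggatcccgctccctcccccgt
Efnb1, chrX:99135811-99136060, plus strand: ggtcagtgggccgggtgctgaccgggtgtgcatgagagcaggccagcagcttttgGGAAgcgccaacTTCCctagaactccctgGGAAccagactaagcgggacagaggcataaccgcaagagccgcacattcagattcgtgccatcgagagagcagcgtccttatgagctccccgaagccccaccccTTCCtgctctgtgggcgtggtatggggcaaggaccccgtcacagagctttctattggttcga

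Plxnd1 held 5 GGAA cores on either strand, Plxnc1 and Efnb1 4 each, Robo4 and Ephb1 3 each and Sema3g 2. Among the genes past the threshold whose windows are not shown, Efnb2, Epha4 and Ephb3 held 1 each. Each window of Efna1 and Epha7 held 3. The table of promoters held 56 of the 65 genes, with 72 windows. The core was common: it lay in 93.4% of all 32851 windows of this length (median of 3 matches) and in all 11 of the 12 genes past the threshold between mutant and wild-type positive cells that had a window. The longer ETS sequence CCGGAA, searched on both strands, lay in 12% of all windows, in 6 of the 72 windows of the guidance genes and in 0 of these 11 genes. Every match of the longer sequence is also a match of the core.

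Differences were tested with limma in a single model of the 4 groups, and a gene passed at a Benjamini-Hochberg adjusted p under 0.05 over all 18193 genes. Errors of differences are limma's standard errors (SE), with n = 3 arrays per group throughout. In wild-type embryos, which the comparison of positive with negative cells describes, 7 of the 65 genes were higher and 11 lower in positive cells. That is 10.8% and 16.9% of the families, beside 4.63% and 3.61% of all genes. Plxnd1 rose most, 19.3-fold, and the ephrin receptors Epha7 and Epha4, the netrin Ntn1 and the semaphorins Sema3a, Sema3c and Sema3d were among those lower. The median difference was -0.13 log2 over the families and -0.02 over all genes. The number lower fell to 6 without WP1, to 5, 7 and 6 without WN1, WN2 or WN3, and to 6 without both wild-type arrays numbered 1. Over all genes the number lower went from 656 to 485, 424, 410, 405 and 299 in the same order. On leaving out single arrays the number higher stayed between 5 and 8 in the families and between 611 and 843 over all genes.

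Between mutant and wild-type positive cells, which addresses what the reporter-positive fraction loses or gains when Etv2 is mutated, 6 genes were lower and 6 higher. These are 9.23% of the families each, beside 3.74% lower and 4.23% higher among all genes. The lower genes were Plxnd1, Plxnc1, Efnb2, Sema3g, Efna1 and Robo4, and the higher genes Epha7, Ephb1, Efnb1, Epha4, Ephb3 and Slit1. In the mutant itself, 4 of the families' genes were higher and 5 lower in positive than in negative cells, or 6.15% and 7.69% beside 3.07% and 2.29% of all genes. With the positive and negative arrays of a replicate number treated as a pair, 9 were lower in place of 5. Over all genes that pairing gave 614 lower in place of 417. Leaving out single arrays moved the counts of the families in the mutant to between 1 and 5 higher and between 1 and 7 lower. There were 2 higher without WN2, MP2 or MN1, and 1 was higher without MN3. Over all genes the number higher was then 500, 420, 484 and 368, in place of 558. In the families 3, 2 and 1 were lower without MP1, MP2 or MP3, and 2 were lower without MN1 or MN2. Over all genes the number lower was then 413, 257, 275, 310 and 313, in place of 417. The comparison with wild-type positive cells shares its wild-type arrays with the wild-type sort comparison, so the values of each are given side by side below and are not independent.

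Between mutant and wild-type negative cells, 0 of the 65 genes and 0 of all genes passed with limma. At an unadjusted p under 0.05 there were 4 of the 65, or 6.15%, beside 5.22% of all genes. The 4 were Sema3d (-0.64 ± 0.22 log2), Efna3 (0.38 ± 0.16), Sema5b (0.30 ± 0.13) and Robo3 (-0.37 ± 0.17), with adjusted p from 0.922 to 0.929. Arrays of the groups did not overlap for 8 of the 65 genes, or 12.3%, beside 11.2% of all genes.

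**Figure D1:**
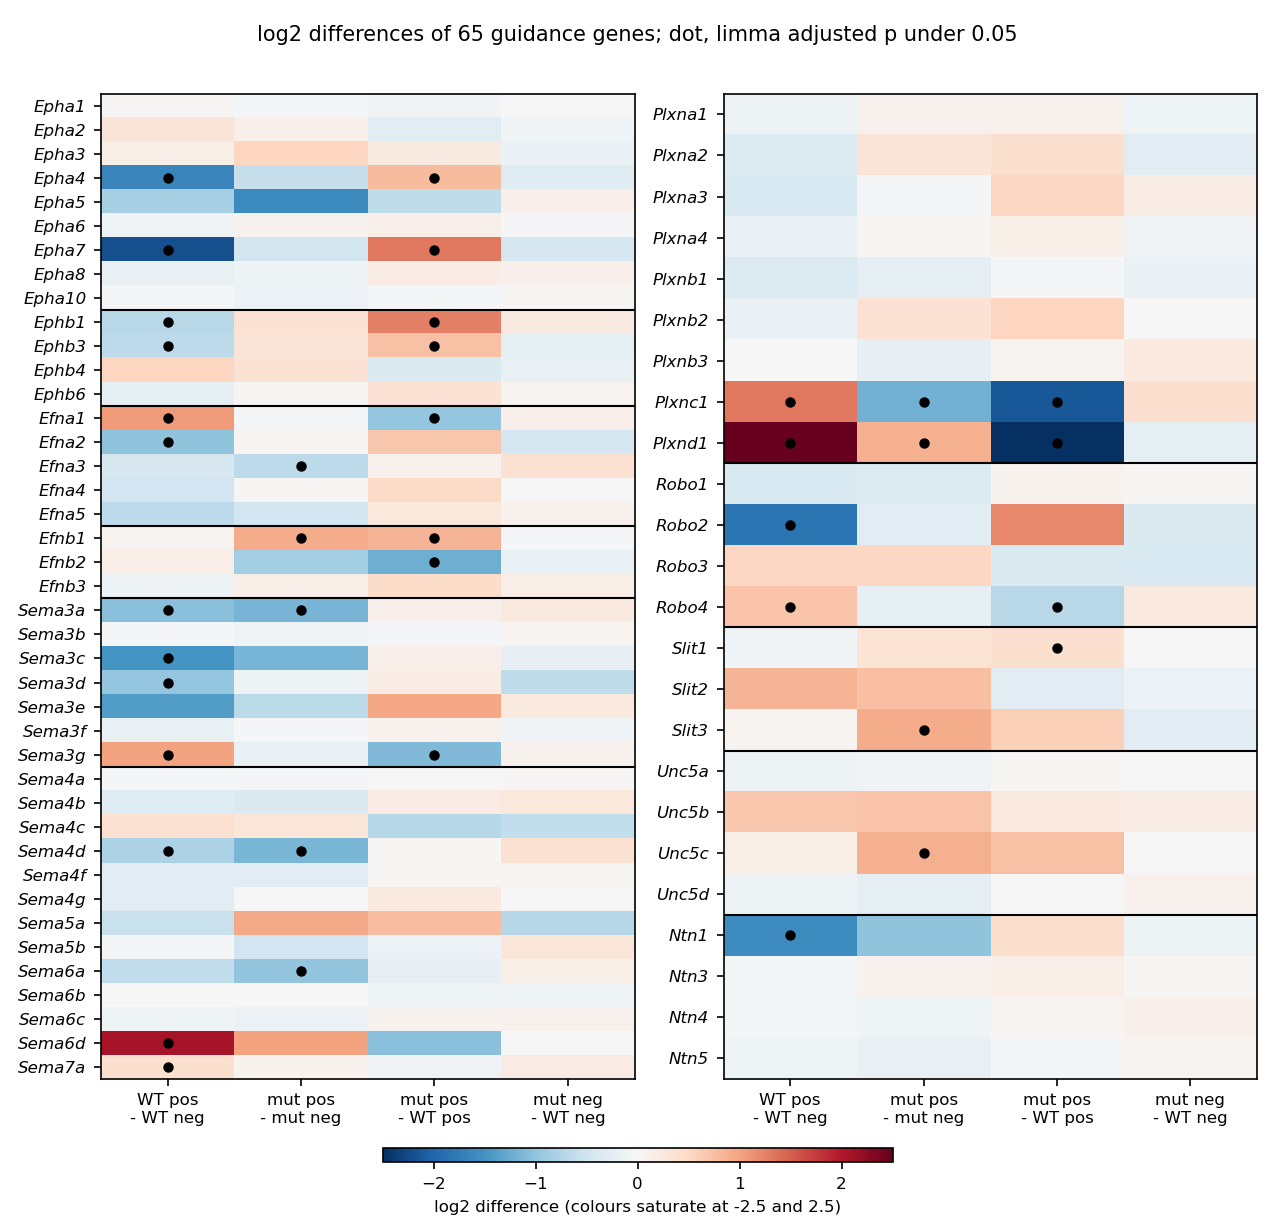
Difference in log2 expression (colour) of each of the 65 guidance genes (rows, with lines between families) in 4 comparisons (columns: wild-type positive minus negative, mutant positive minus negative, mutant minus wild-type positive, mutant minus wild-type negative cells), where a dot marks a limma adjusted p under 0.05. Plxnd1 has the deepest colours, dots lie mostly in the Eph, ephrin, class 3 semaphorin and plexin rows, and the column of negative cells has none.

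Among the plexins, the receptors of semaphorins, 2 of 9 passed in the wild-type sort, both higher in positive cells, and the same 2 were lower in mutant positive cells. For all genes the shares were 4.63% higher in that sort and 3.74% lower between the positive cells. Plxnd1, which encodes the receptor of Sema3E in endothelium, had values of 12.17, 11.55 and 11.75 on the wild-type positive arrays, 7.48, 7.78 and 7.39 on the wild-type negative, 8.08, 8.68 and 7.93 on the mutant positive and 7.33, 7.66 and 7.002 on the mutant negative arrays. The wild-type positive arrays stood far above all others, and the mutant positive arrays stood above both negative groups without overlap. Plxnd1 rose by 4.27 ± 0.23 log2 in wild-type positive cells (adjusted p = 4.95e-07) and was 12.1-fold lower in mutant than in wild-type positive cells (-3.60 ± 0.23, adjusted p = 2.37e-06). These differences passed under all 22 alternatives run gene by gene, which leave out the test of every probe set. In the mutant it still rose in positive cells, by 0.90 ± 0.23 (adjusted p = 0.0474). This last call was lost without WP3, any WN array, MP1 or MP2, or MN1 or MN3 (adjusted p 0.0599 to 0.17). All 12 endothelial markers rose in the wild-type sort, 11 were lower in mutant than in wild-type positive cells, and 2 rose in the mutant sort. Of the 7 erythroid markers, 6 rose in the wild-type sort, all 7 were lower in mutant than in wild-type positive cells, and 0 passed in the mutant sort. The part of either marker list in the values of Plxnd1, or of the other guidance genes high in wild-type positive cells, was not tested. In sorted bulk samples, fewer cells of a type and less RNA per cell cannot be told apart.

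Plxnc1, the receptor of Sema7A, changed direction between the genotypes. Its wild-type values were 10.35, 9.65 and 9.09 with the reporter and 8.57, 8.28 and 8.28 without; it had 7.81, 7.70 and 7.21 in mutant positive and 8.70, 8.62 and 8.99 in mutant negative cells. Every wild-type positive array was above all negative arrays, and every mutant positive array below them. Plxnc1 rose by 1.32 ± 0.27 log2 in wild-type positive cells (adjusted p = 0.00968) and fell by 1.19 ± 0.27 in mutant positive cells against mutant negative cells (adjusted p = 0.0242). The fall in the mutant was lost without MP2 or MP3 or any MN array (adjusted p 0.0518 to 0.0933). Mutant positive cells were 4.36-fold lower than wild-type positive cells (-2.12 ± 0.27, adjusted p = 0.000568). Of the 6 probe sets for Plxnc1, 3 gave this genotype difference past the threshold when every probe set was tested (-2.12, -1.87 and -1.40), the fourth gave -1.78 (adjusted p = 0.0604), and the dimmest pair gave 0.02 and 0.01. With the mean of all 6 the values were 0.734 and -0.751 in the wild-type and mutant sorts and -1.19 between positive cells, all still past the threshold. The A and B plexins gave no calls in any comparison, with differences from -0.38 to -0.13 in the wild-type sort for 6 of them and an adjusted p of 0.999 for Plxnb3.

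Sema3e, which binds plexin D1 directly, was spread widely in wild-type positive cells (7.33, 9.16 and 6.81) beside 9.32, 9.05 and 9.14 in negative cells, and did not pass (-1.40 ± 0.57 log2, adjusted p = 0.2). Sema7a, a lipid-anchored semaphorin, was higher in wild-type positive cells by 0.40 ± 0.11 (adjusted p = 0.0495). That call was lost without any array except MN1 (0.0509 to 0.168), with the paired arrays (0.0705) and with the mean of both probe sets, where the difference was 0.164 (0.325).

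Secreted class 3 semaphorins split in wild-type positive cells, where 3 of 7 were lower and 1 higher, beside 3.61% and 4.63% of all genes. Sema3g, a ligand that uses neuropilin 2, had 6.86, 5.90 and 6.42 on the wild-type positive arrays and between 5.08 and 5.55 on the other 9. Those 9 values lie under the 25th percentile of their arrays, where signal may be background, so the size of the difference is uncertain. It was higher in wild-type positive cells by 1.01 ± 0.20 log2 (adjusted p = 0.00736) and differed by -1.11 ± 0.20 between mutant and wild-type positive cells (adjusted p = 0.00507).

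Sema3a, a repellent that binds neuropilin 1, was lower in positive cells of both genotypes. It had 8.59, 8.62 and 8.13 in wild-type positive against 9.67, 9.31 and 9.50 in wild-type negative cells, and 8.998, 8.45 and 8.29 against 10.07, 10.04 and 9.11 in the mutant. Positive and negative arrays did not overlap in either genotype. It fell by 1.05 ± 0.26 log2 in the wild type (adjusted p = 0.0318) and by 1.16 ± 0.26 in the mutant (adjusted p = 0.0259), and the interaction was -0.11 ± 0.37 (95% interval -0.928 to 0.711). The wild-type call was lost without WP1 or WP3 or any WN array (0.0596 to 0.117), and the mutant call without MP2 or MP3 or MN1 or MN2 (0.0914 to 0.102). With the mean of its 3 probe sets both were smaller and lost, at -0.626 (0.0515) in the wild type and -0.608 (0.0778) in the mutant. Sema3c, a ligand known from the cardiac outflow tract, had 6.25, 6.69 and 6.73 in wild-type positive and 8.65, 7.39 and 8.08 in wild-type negative cells, without overlap. It fell by 1.49 ± 0.32 in the wild type (adjusted p = 0.0142) and had -1.16 ± 0.32 in the mutant (adjusted p = 0.0672, and 0.0486 with the paired arrays). Sema3d, a relative of Sema3a, had 5.79, 5.93 and 6.29 against 6.52, 6.85 and 7.54, also without overlap, and fell by 0.97 ± 0.22 in the wild type (adjusted p = 0.0201). The Sema3c call was lost without WP1 or WN1 or WN3 (0.0518 to 0.0589), and that of Sema3d without WP1 or WP2 (0.0789 and 0.0606). With the mean of both probe sets of each gene these falls were smaller but passed (-0.947 for Sema3c and -0.583 for Sema3d). The other probe set of each gene did not pass by itself (-0.406 for Sema3c and -0.201 for Sema3d). Of the 8 neural markers 5 fell in the wild-type sort and 6 in the mutant sort, and of the 8 paraxial markers 4 and 3. Of the 8 markers of epithelium and definitive endoderm, 4 fell in the wild-type sort and 5 in the mutant sort, and 1 rose in each. The part of these cell types in the falls was not tested.

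Of 13 membrane-bound semaphorins, 2 were higher and 1 lower in wild-type positive cells, 2 were lower in mutant positive against mutant negative cells, and none passed between mutant and wild-type positive cells, where differences ran from -1.05 to 0.77. For all genes the shares were 4.63% higher and 3.61% lower in the wild-type sort and 2.29% lower in the mutant sort. Sema6d, a transmembrane semaphorin that binds plexin A1 in the developing heart, had 11.84, 11.27 and 11.30 in wild-type positive and 9.36, 9.19 and 9.68 in wild-type negative cells. The mutant positive arrays, at 9.69, 10.52 and 11.06, were all below the wild-type positive ones and overlapped the mutant negative arrays (9.29, 9.20 and 9.78). It rose 4.16-fold in the wild type (2.06 ± 0.30 log2, adjusted p = 0.00132). The mutant values were 1.001 ± 0.304 for the sort (adjusted p = 0.0956, and 0.0246 with the paired arrays) and -1.05 ± 0.30 against wild-type positive cells (adjusted p = 0.0596). Its 3 dimmer probe sets gave 0.23 to 0.73 log2 in the wild type and did not pass, and with the mean of all 4 the rise was 0.835 (adjusted p = 0.0023).

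Sema4d, the ligand of plexin B1, was lower in positive cells of both genotypes, with 8.37, 7.66 and 8.42 against 9.09, 9.03 and 8.72 in the wild type and 8.27, 8.16 and 8.12 against 9.54, 9.29 and 9.16 in the mutant. It fell by 1.15 ± 0.19 log2 in the mutant (adjusted p = 0.0045) under all 22 of these alternatives, and by 0.79 ± 0.19 in the wild type (adjusted p = 0.0249). The wild-type call was lost without WN1 or WN2 (0.0998 and 0.0932) and with the mean of its 3 probe sets, where it was -0.329 (0.125); that mean gave -0.494 (0.0282) in the mutant. Sema6a had 7.41, 7.23 and 7.34 in mutant positive and 8.54, 8.03 and 8.36 in mutant negative cells, with no overlap. It fell there by 0.98 ± 0.22 (adjusted p = 0.0253), a call lost without any MP array or MN1 or MN3 (0.0525 to 0.0896). With the mean of its 3 probe sets that fall was -0.419 and lost (0.0868). Wild-type means of Sema6a were also lower in positive cells (7.542 against 8.155), but it did not pass there or in the interaction. For both genes the other 2 probe sets did not pass in the mutant (-0.22 to -0.08), nor those of Sema4d in the wild type (-0.202 and 0.00901).

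**Figure D2:**
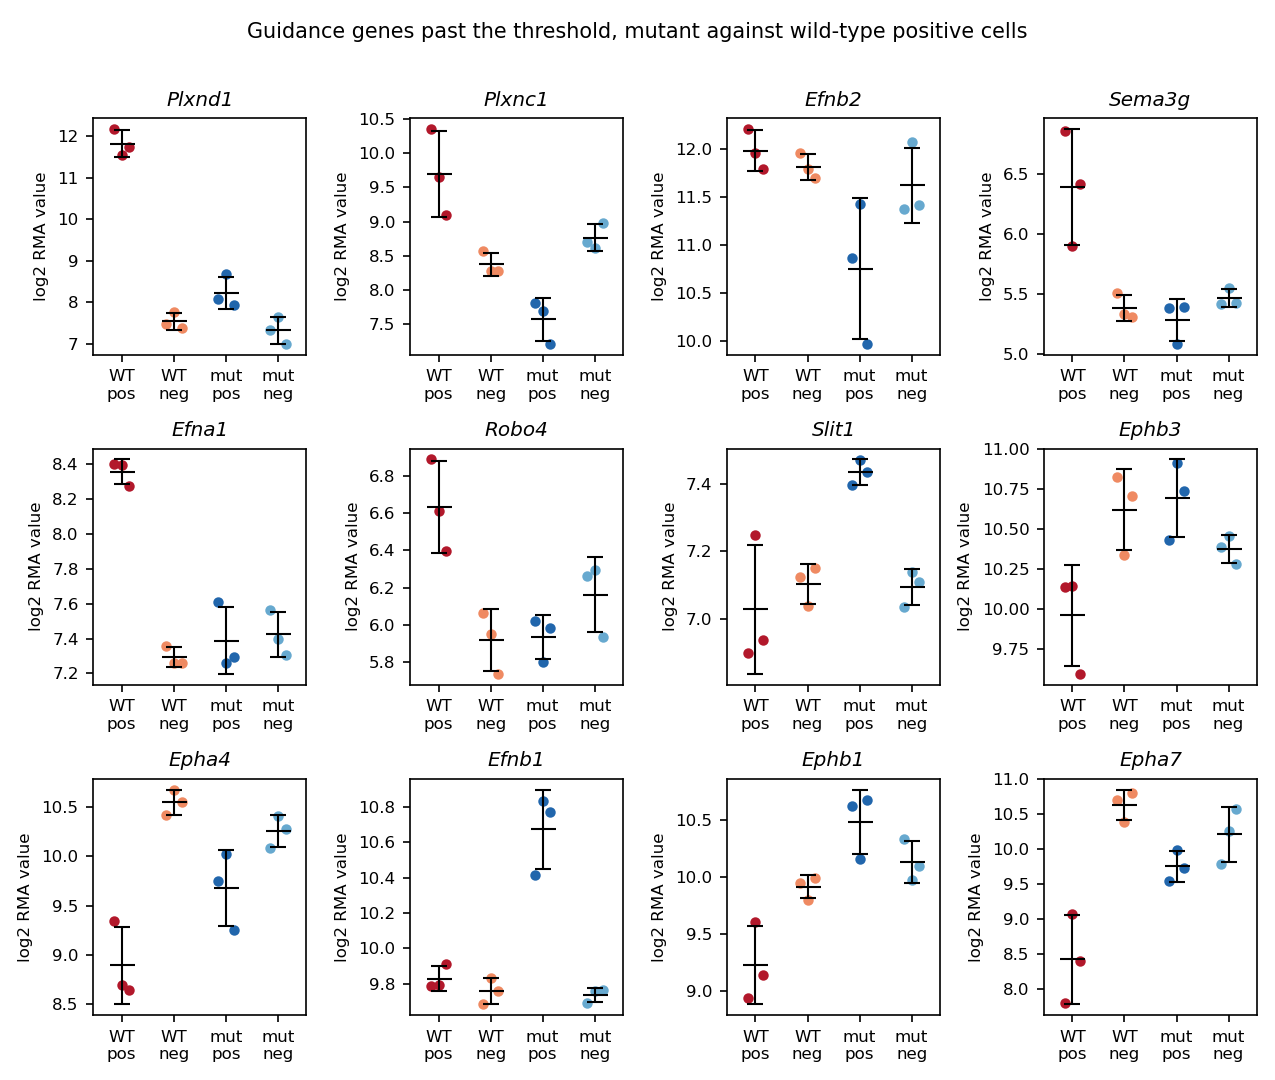
Log2 RMA value (vertical axis) on each of the 12 arrays (points) for the 12 guidance genes past the threshold between mutant and wild-type positive cells, by group, with horizontal bars at group means and error bars of 1 SD (n = 3). Wild-type positive arrays lie above all 9 others for Plxnd1, Plxnc1, Efna1, Sema3g and, narrowly, Robo4, and below them for Epha7, Ephb1 and Ephb3. Mutant positive arrays lie above all others for Efnb1 and Slit1 and below them for Plxnc1, and the vertical scale differs between panels.

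Among the Eph receptors, 4 of 13 were lower in wild-type positive cells and the same 4 were higher in mutant than in wild-type positive cells. They were Epha4 and Epha7, known for boundaries in hindbrain and somites, and Ephb1 and Ephb3, receptors of ephrin B ligands. For all genes the shares were 3.61% lower in that sort and 4.23% higher between the positive cells. Epha7 had 7.80, 9.08 and 8.40 on the wild-type positive arrays, below every other array of the study (10.70, 10.39 and 10.80 in wild-type negative, 9.54, 9.98 and 9.73 in mutant positive, 9.79, 10.26 and 10.57 in mutant negative cells). It fell 4.62-fold with the wild-type sort (-2.21 ± 0.29 log2, adjusted p = 0.000547) and rose by 1.33 ± 0.29 between wild-type and mutant positive cells (adjusted p = 0.0161). The rise was lost without MP2 (0.0576). Of its 3 other probe sets 1 passed in the wild-type sort (-0.961) and the others gave -0.171 and -0.1, and with the mean of all 4 the fall was -0.859 and the rise 0.584, both past the threshold. Epha4 had 9.35, 8.69 and 8.64 in wild-type positive, 10.42, 10.67 and 10.56 in wild-type negative, 9.75, 10.02 and 9.26 in mutant positive and 10.08, 10.41 and 10.28 in mutant negative cells. It fell with the wild-type sort by 1.66 ± 0.22 (adjusted p = 0.000535), and by 1.02 with the mean of its 5 probe sets. Mutant and wild-type positive arrays overlapped for Epha4, and its rise of 0.78 ± 0.22 (adjusted p = 0.0485) was lost with the paired arrays (0.0571) and on leaving out any of 10 of the 12 arrays, all but WP1 and MP3 (0.0545 to 0.144). When every probe set was tested, 2 of its 4 other probe sets passed for this rise (0.465 to 1.07 over all 4), while the one used did not.

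Ephb1 was below every other array in wild-type positive cells (8.93, 9.60 and 9.14), while mutant positive cells (10.62, 10.16 and 10.67) overlapped mutant negative ones, with 9.95, 9.79 and 9.99 in wild-type negative and 10.33, 9.97 and 10.09 in mutant negative cells. It rose 2.40-fold between wild-type and mutant positive cells (1.26 ± 0.18 log2, adjusted p = 0.0015) under all 22 of these alternatives. Its fall with the wild-type sort (-0.69 ± 0.18, adjusted p = 0.0416) was lost without WP1 or WP3, any WN array, MP1 or MN3 (0.0502 to 0.148). Ephb3 was also lower in wild-type positive cells, as the values in wild-type positive (10.14, 10.14 and 9.59), wild-type negative (10.82, 10.34 and 10.70) and mutant positive cells (10.43, 10.91 and 10.74) show, with a rise of 0.73 ± 0.18 between positive cells (adjusted p = 0.0298). That rise was lost without WP3 or MP2 or MP3 (0.08 to 0.096). Its fall with the wild-type sort (-0.66 ± 0.18, adjusted p = 0.046) was lost without WP1 or WP3, WN1 or WN3, MP3 or any MN array (0.056 to 0.169). Between the same positive cells, 1 of 8 neural markers was higher in the mutant, 1 of 8 paraxial markers lower, 5 of 8 lateral plate markers higher and all 10 heart markers higher. The part of these markers in the Eph values was not tested.

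Ephb4, the venous receptor, and Epha2, a receptor of ephrin A1, did not pass in any comparison. Wild-type arrays of Ephb4 read 8.48, 8.84 and 8.40 for positive and 7.99, 7.99 and 8.16 for negative cells, a difference of 0.53 ± 0.16 log2 (adjusted p = 0.063) without overlap. Epha5 had the largest Eph difference within the mutant, with 6.97, 7.22 and 6.74 in positive and 8.22, 8.88 and 8.62 in negative cells (-1.60 ± 0.42, adjusted p = 0.0512, and 0.00941 with the paired arrays). In the wild-type sort Epha5 differed by -0.83 ± 0.42 (adjusted p = 0.331), and it did not pass in the interaction. Epha3, Epha6 and Ephb6 were dim in every group, with all group means under 5.65, the 25th percentile of all values.

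The ephrins, ligands of these receptors, moved gene by gene. Efna1, an ephrin A of early vessels, had 8.40, 8.39 and 8.28 in wild-type positive cells and 7.26 to 7.61 on the other 9 arrays. It rose 2.09-fold with the wild-type sort (1.07 ± 0.11 log2, adjusted p = 0.000113) and fell by 0.97 ± 0.11 between wild-type and mutant positive cells (adjusted p = 0.000293), under all 22 of these alternatives, but its other probe set gave 0.22 and -0.23 and did not pass. With the mean of both the values were 0.641 and -0.602, past the threshold. Efna2 had 8.93, 9.53 and 9.44 in wild-type positive and 10.08, 10.31 and 10.55 in wild-type negative cells, a fall of 1.01 ± 0.20 (adjusted p = 0.00722). Its other probe set gave -0.109 and did not pass, and with the mean of both the fall was -0.56 (adjusted p = 0.0116). Efna3 had 7.49, 7.60 and 7.48 in mutant positive and 8.05, 8.46 and 8.04 in mutant negative cells, a difference of -0.66 ± 0.16 (adjusted p = 0.0303), a call lost without any MP array or MN2 (0.0676 to 0.113). In the wild-type sort Efna3 differed by -0.40 ± 0.16 (adjusted p = 0.181), and it did not pass in the interaction.

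Efnb1 and Efnb2, transmembrane ligands of Eph B receptors, went in opposite directions in mutant positive cells. Efnb1 had 10.41, 10.83 and 10.77 there and 9.68 to 9.91 on the other 9 arrays. It rose by 0.84 ± 0.11 log2 against wild-type positive cells (adjusted p = 0.000861) and by 0.93 ± 0.11 against mutant negative cells (adjusted p = 0.000782), and its other 2 probe sets passed in both comparisons (0.90 to 1.28). In the wild-type sort Efnb1 differed by 0.07 ± 0.11 (adjusted p = 0.84). Efnb2, the arterial ephrin, had 10.86, 11.43 and 9.97 in mutant positive cells and 12.20, 11.95 and 11.79 in wild-type positive cells. Those groups did not overlap, and Efnb2 fell 2.34-fold (-1.23 ± 0.31, adjusted p = 0.0315). The call was lost without any WP array, WN2, or MP1 or MP3 (0.05 to 0.0971), and its dimmer probe sets gave -0.89, 0.06 and -0.05 and did not pass. With the mean of all 4 the difference was -0.527 (0.103). Its receptor Ephb4 differed by -0.36 ± 0.16 between the same cells (adjusted p = 0.202). In wild-type embryos Efnb2 differed between positive and negative cells by 0.17 ± 0.31 (95% interval -0.501 to 0.845), and in the mutant by -0.87 ± 0.31 (adjusted p = 0.163, and 0.0183 with the paired arrays).

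**Figure D3:**
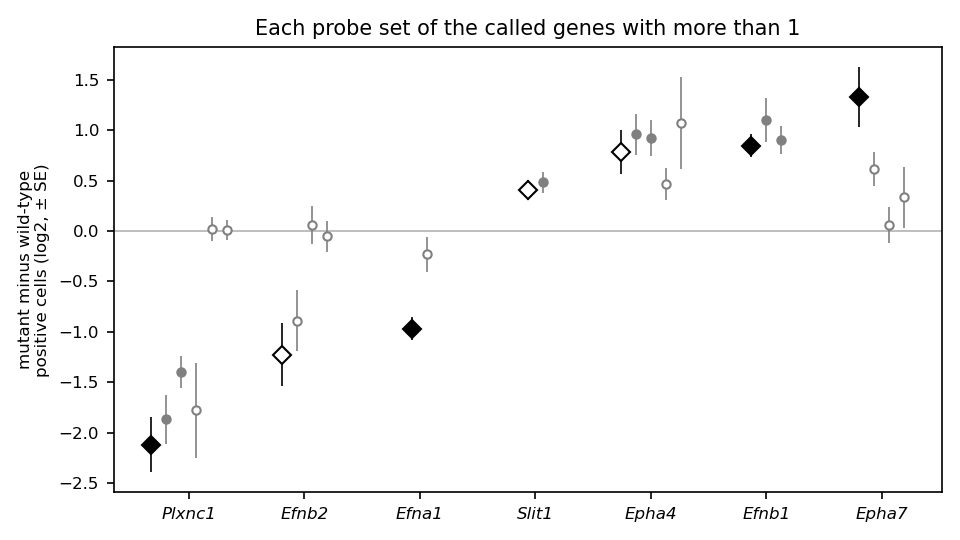
Mutant minus wild-type positive cells in log2 (vertical axis, ± SE) for each probe set of the 7 genes past the threshold that have more than 1, with the probe set used for the gene as a black diamond, others as grey circles, and filled symbols for an adjusted p under 0.05 when every probe set is tested. Probe sets of Efnb1 lie together, whereas dimmer probe sets of Plxnc1, Efnb2 and Epha7 lie near 0. With that many tests the probe sets used for Efnb2, Slit1 and Epha4 are open. The other probe set of Slit1 and 2 of the 4 others of Epha4 are filled.

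Of the 4 Robo receptors, Robo4 rose and Robo2 fell in wild-type positive cells, and Robo4 was lower in mutant positive cells. For all genes the shares were 4.63% higher and 3.61% lower in that sort and 3.74% lower between the positive cells. Robo4, the endothelial member, had 6.89, 6.61 and 6.39 in wild-type positive cells and 5.73 to 6.30 on the other 9 arrays. It rose by 0.72 ± 0.15 log2 with the wild-type sort (adjusted p = 0.0114, and 0.0547 without WN3) and fell by 0.70 ± 0.15 between wild-type and mutant positive cells (adjusted p = 0.0147, and 0.0549 without MP2). All values of Robo4 lie under the array medians (6.98 to 7.06). The 9 lower ones lie little above 5.65, the 25th percentile of all values, so the size of these differences is uncertain. Robo2, a receptor of neural and mesodermal Slit signals, had 5.41, 6.07 and 4.59 in wild-type positive and 7.30, 7.05 and 7.21 in wild-type negative cells. Its fall (-1.83 ± 0.49, adjusted p = 0.0401) was lost without WP1 or WP3, any WN array or MP2 (0.055 to 0.138). The values on WP1 and WP3 lie under the 25th percentile of their arrays, so the size of the fall is uncertain. Robo1 and Robo3 did not pass (-0.39 ± 0.17 and 0.51 ± 0.17), although Robo3 did with the paired arrays (adjusted p = 0.045).

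The Slits, which Robo receptors bind, held 1 of 3 genes past the threshold against wild-type positive cells and 1 of 3 against mutant negative cells, each higher in mutant positive cells. For all genes the shares higher were 4.23% and 3.07%. Slit3 had 8.91, 8.99 and 8.64 in mutant positive and 8.29, 7.86 and 7.58 in mutant negative cells. It rose by 0.93 ± 0.23 log2 (adjusted p = 0.0377), a call lost without WN2, any MP array or MN2 or MN3 (0.0534 to 0.141). Slit1 had 7.40, 7.47 and 7.44 in mutant positive and 6.90, 7.25 and 6.94 in wild-type positive cells, a rise of 0.41 ± 0.10 (adjusted p = 0.0336). That rise was lost without WP1 or WP3, WN1 or any MP array (0.0507 to 0.107). When every probe set was tested, the other probe set of Slit1 passed (0.485), while the one used did not. Slit2 had 10.55, 9.90 and 9.43 in wild-type positive and 9.49, 8.79 and 9.04 in wild-type negative cells. Its sort differences were 0.85 ± 0.26 in the wild type and 0.74 ± 0.26 in the mutant, with adjusted p of 0.0761 and 0.162, and of 0.0164 and 0.0389 with the paired arrays.

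Among the netrin system, Ntn1, the floor plate netrin, had 8.32, 7.83 and 8.15 in wild-type positive and 9.29, 9.22 and 10.49 in wild-type negative cells. It fell 2.95-fold (-1.56 ± 0.34 log2, adjusted p = 0.0141), a call lost without WP2 (0.0514) and with the mean of both probe sets, where the fall was -0.695 (0.0917). The other probe set showed no fall, at 0.174, and did not pass. In the mutant Ntn1 had -1.003 ± 0.338 (adjusted p = 0.14, and 0.0345 with the paired arrays). Ntn3, Ntn4 and Ntn5 did not pass in any comparison. Ntn3 and Ntn4 were dim in every group, with all group means under 5.65, the 25th percentile of all values. Unc5c, a netrin receptor, had 10.38, 10.03 and 11.05 in mutant positive cells against 9.51, 9.77 and 9.50 in mutant negative and 9.69, 9.89 and 9.65 in wild-type positive cells. It rose by 0.89 ± 0.21 within the mutant (adjusted p = 0.027), a call lost without MP1 or MN1 or MN3 (0.0505 to 0.093), and its other probe set also passed (0.96). Against wild-type positive cells it had 0.74 ± 0.21 (adjusted p = 0.0502). Unc5b, the netrin receptor of endothelium, had differences of 0.66 ± 0.20 in the wild-type sort and 0.72 ± 0.20 in the mutant sort (adjusted p = 0.0676 and 0.0652), with 0.24 ± 0.20 between the positive cells (adjusted p = 0.536).

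A fit on only the arrays of the groups compared, which has fewer residual degrees of freedom, ended 7 of the 12 calls between the positive cells. Over all genes that fit gave 385 higher and 459 lower there, in place of 769 and 681. The adjusted p was 0.051 for Robo4, 0.0554 for Sema3g, 0.0659 for Epha7, 0.0936 for Ephb3, 0.108 for Efnb2, 0.126 for Slit1 and 0.158 for Epha4. In the wild-type sort it ended the calls of Ephb1, Ephb3, Sema3d, Sema4d and Sema7a (0.06 to 0.0948), and in the mutant sort those of Slit3, Efna3, Sema3a, Plxnd1 and Unc5c (0.0533 to 0.14). Leaving out WP1 and WN1 together ended the wild-type sort calls of Robo4, Sema4d, Sema3c, Ephb3, Sema3a, Robo2, Ephb1 and Sema7a (0.0586 to 0.304). It also ended those of Robo4, Epha7, Efnb2 and Slit1 between positive cells (0.0608 to 0.144) and of Slit3, Sema3a, Plxnd1 and Unc5c in the mutant sort (0.0505 to 0.0604). Array weights ended the calls of Slit1 between positive cells (0.0504) and Plxnd1 in the mutant sort (0.0502), and limma's trended, robust variance those of Ephb1, Ephb3 (0.0517 and 0.0555, wild-type sort) and Epha4 (0.0536, positive cells), which quantile normalization also ended (0.0507).

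The interaction asks whether the difference between positive and negative cells depends on the genotype. It passed for 7 of the 65 genes, 5 with a lower difference in the mutant and 2 with a higher one, or 7.69% and 3.08% beside 1.61% and 0.973% of all genes. The lower ones were Plxnd1 (-3.38 ± 0.33 log2, adjusted p = 0.000137), Plxnc1 (-2.51 ± 0.38, adjusted p = 0.00386), Sema3g (-1.19 ± 0.28, adjusted p = 0.0475), Efna1 (-1.10 ± 0.16, adjusted p = 0.00294) and Robo4 (-0.95 ± 0.21, adjusted p = 0.0397). The higher ones were Epha7 (1.75 ± 0.41, adjusted p = 0.048) and Efnb1 (0.86 ± 0.16, adjusted p = 0.0152). Plxnd1, Plxnc1 and Efna1 passed under all 21 alternatives run gene by gene; with the mean of all probe sets Plxnc1 had -1.48 and Efna1 -0.704. Calls were lost for Robo4 without any array but WP3 and MN3 (0.0544 to 0.108), for Sema3g without any but WP1 and WP2 (0.0667 to 0.122), and for Epha7 without any but WP2 and MN3 (0.0614 to 0.126). The Epha7 call was also lost with the mean of its probe sets (0.771, adjusted p = 0.0663), quantile normalization (0.066) and array weights (0.0525), and that of Sema3g with quantile normalization (0.0603) and arrays centred on their medians (0.0565). Without WP1 and WN1 together, Epha7, Robo4, Sema3g and Efnb1 lost theirs (0.138, 0.079, 0.0685 and 0.0588). The number lower was 3 on leaving out any WN or MP array, MN1 or MN2. Over all genes it was then 217 to 267, in place of 292. In the families the number higher was 1 on leaving out WP3, any WN array, MP1, MN1 or MN2, and 3 on leaving out WP2. Over all genes it was then 82 to 158, and 167, in place of 177.

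With the paired arrays 5 genes were higher in the interaction in place of 2, with Efna2 (1.09 ± 0.16, adjusted p = 0.0105), Ephb1 (1.04 ± 0.23, 0.0452) and Sema3d (0.83 ± 0.18, 0.0431) added. Over all 18193 genes the same pairing gave 378 higher in place of 177. In contrast with Plxnd1, the sort difference of Sema6d was not shown to depend on genotype (interaction -1.06 ± 0.43, adjusted p = 0.322).

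**Figure D4:**
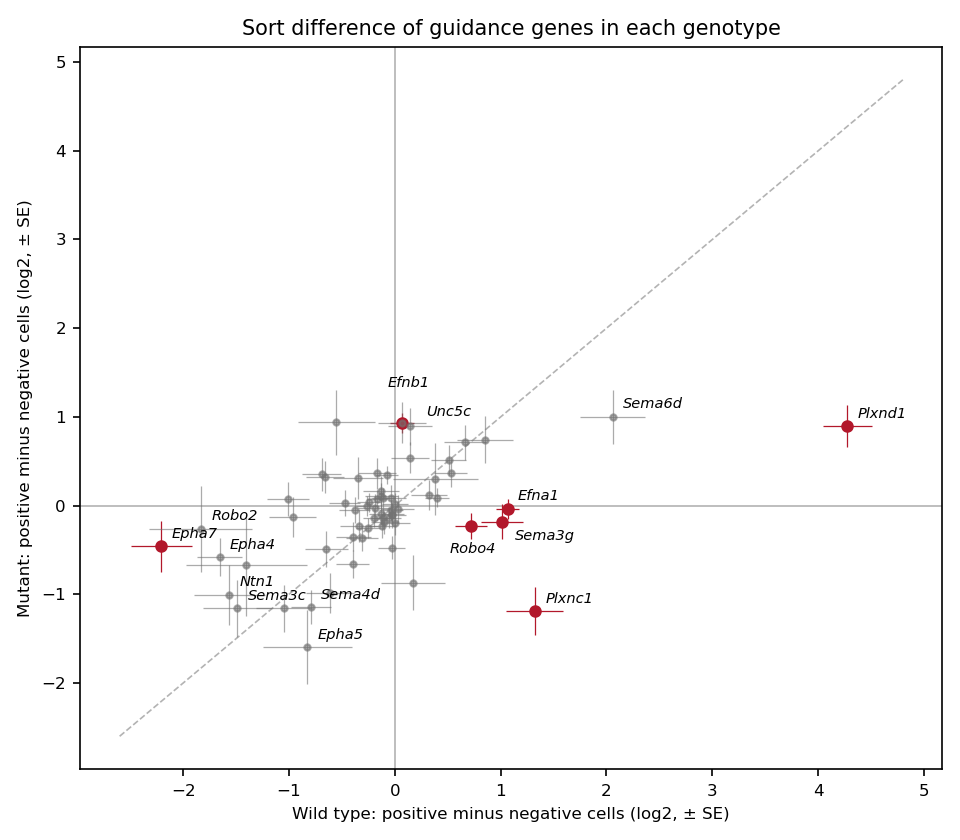
Positive minus negative cells in log2 (± SE) in the wild type (horizontal axis) and in the mutant (vertical axis) for the 65 guidance genes, with red points for the 7 genes past the threshold in the interaction and a dashed line where the genotypes are equal. Plxnd1 (4.27 and 0.90), Plxnc1 (1.32 and -1.19), Efna1, Sema3g and Robo4 lie below the line, Efnb1 and Epha7 above it, and Sema4d and Sema3c near it.

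Partner genes outside the families were read from 5 lists. Among 9 co-receptors and other receptors, 1 rose and 2 fell with the wild-type sort, beside 4.63% and 3.61% of all genes. Nrp1, the co-receptor of class 3 semaphorins and VEGF, had 12.88, 12.54 and 12.41 in wild-type positive against 11.38, 11.63 and 11.46 in wild-type negative cells, and 12.45, 13.03 and 12.72 against 10.86, 10.96 and 11.38 in the mutant. It rose by 1.12 ± 0.18 log2 in the wild type (adjusted p = 0.00253) and by 1.67 ± 0.18 in the mutant (adjusted p = 0.000409), and differed by 0.12 ± 0.18 between the positive cells (adjusted p = 0.757). Nrp2, Dcc and Neo1 differed between the positive cells by -0.52 ± 0.31, 0.13 ± 0.12 and 0.43 ± 0.12 (adjusted p = 0.364, 0.578 and 0.0506). Neo1, a relative of Dcc, fell with the wild-type sort by 0.67 ± 0.12 (adjusted p = 0.00441).

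Of 14 transducers of Eph and ephrin signals, 5 rose and 1 fell with the wild-type sort, and 6 were lower and 1 higher in mutant than in wild-type positive cells. For all genes the shares were 4.63% and 3.61% in the sort, and 3.74% lower and 4.23% higher between the positive cells. Arhgef15, known from blood vessels, rose by 2.83 ± 0.14 log2 with the wild-type sort (adjusted p = 2.03e-07) and fell by 2.84 ± 0.14 between wild-type and mutant positive cells (adjusted p = 2.04e-07). Vav3, an exchange factor that Eph receptors recruit, rose by 2.91 ± 0.27 in the wild type and 1.23 ± 0.27 in the mutant (adjusted p = 4.18e-05 and 0.0222), and Tiam1, a Rac exchange factor, fell by 1.64 ± 0.15 between the positive cells (adjusted p = 3.69e-05). Of 17 transducers of plexins and semaphorins 1 was higher and 1 lower between the positive cells, Dpysl3 (0.81 ± 0.21, adjusted p = 0.0361) and Crmp1 (-0.99 ± 0.20, adjusted p = 0.0103), both of the collapsin response mediator family. Of the 13 measured Robo and netrin transducers 1 passed there, the GTPase Cdc42 (-0.46 ± 0.10, adjusted p = 0.0135). Between mutant and wild-type negative cells Cdc42 differed in the same direction, by -0.352 ± 0.097, and did not pass (limma adjusted p = 0.909). Of 8 other guidance ligands, 3 were lower in wild-type positive than in negative cells and 3 were higher in mutant than in wild-type positive cells, including Vegfa (0.50 ± 0.09, adjusted p = 0.00613) and the netrin antagonist Draxin (0.65 ± 0.12, adjusted p = 0.00612).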

How the data were processed

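The deposited values are log2 expression values. RMA was the authors' method, per the submitters' processing notes, and its version and settings are not given there. They were used as given, without scanner files or coordinates of probes. Array medians lay between 6.98 and 7.06. Of 45101 probe sets, 64 controls were left out; 34945 had 1 gene symbol, 932 several and 9160 none in the platform table. The symbols of all 65 guidance genes matched RefSeq. No filter on dim values was applied.

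Group differences came from a linear model with moderated variances (limma 3.58.1, R 4.3.3; 8 residual degrees of freedom), two-sided, with 5 contrasts, and tested on simulated data. The 95% intervals are limma's. The number of arrays, 3 per group, limits precision.

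The genes, lists and motifs were chosen with earlier results of these data known. Genes past the threshold in at least 1 contrast could be named, with values on every array for the 6 smallest p per contrast and for genes past it in the interaction. Genes past no threshold are named in families of 4 or fewer, or as receptor or ligand partners. Sema5b was outside this rule and was named for its unadjusted p under 0.05 between negative cells. Outside the families, Etv2, Nrp1, Nrp2, Dcc, Neo1 and, from each of 5 partner lists, the 2 smallest p per contrast could be named. Array values of other genes, the dim Eph receptors and Plxnb3 were added after their values were seen. The GGAA core was added after the CCGGAA counts were seen.

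Same-numbered positive and negative arrays deviated together from their group means (r = 0.102 to 0.202 across genes in wild types, 0.403 to 0.554 in mutants; across genotypes -0.244 to 0.00145). Pairing is therefore read from the data, not the labels. Pairs were a fixed block within genotypes and in the interaction and a random block between genotypes.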

Additional observations from a re-analysis of the deposited data

Results flagged for a closer look

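For 7 guidance genes the difference between positive and negative cells passed the threshold as different in mutants and wild types (limma interaction term). Only Plxnd1, Plxnc1 and Efna1 passed under all 21 alternatives run gene by gene. The call was lost under 14 of them for Epha7, 13 for Sema3g, 11 for Robo4 and 1 for Efnb1. The sort difference was lower in the mutant for Plxnd1 (-3.38 log2), Plxnc1 (-2.51), Sema3g (-1.19), Efna1 (-1.10) and Robo4 (-0.95), and higher for Epha7 (1.75) and Efnb1 (0.86). For Plxnc1 the positive arrays lay above the negative arrays in all 3 wild-type samples and below them in all 3 mutant samples.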

How the results depend on the processing

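No call of a guidance gene changed direction under any alternative run gene by gene. Of the 18 genes called in the wild-type sort, 8 passed under all alternatives run gene by gene (22, or 21 for the interaction, without the test of every probe set, which gave counts alone), as did 5 of 12 between positive cells, 2 of 9 in the mutant sort and 3 of 7 in the interaction. With only the groups of a contrast in the fit, 7 genes were lower in the wild-type sort, 2 higher and 3 lower between positive cells, and 1 higher in the mutant sort. Over all genes that fit gave 625 lower in the wild-type sort, in place of 656. Between positive cells it gave 385 higher and 459 lower, in place of 769 and 681. In the mutant sort it gave 394 higher, in place of 558. Without both wild-type arrays numbered 1, 6 guidance genes were lower in the wild-type sort, 2 higher in the mutant sort, and 1 higher and 3 lower in the interaction. Over all genes these counts were 299, 513, 125 and 212, in place of 656, 558, 177 and 292. Testing every probe set gave 2 guidance genes higher in the mutant sort and 1 higher and 3 lower in the interaction. Of all 45037 probe sets it gave 697, 171 and 402. The interaction had 1 higher guidance gene with the mean of all probe sets, quantile normalization again or array weights. Over all genes these settings gave 210, 158 and 194 higher there, in place of 177. The replicate block of pairs gave 9 guidance genes lower in the mutant sort and 5 higher in the interaction. Over all genes it gave 614 and 378, in place of 417 and 177. A replicate block by number across all groups gave 7 guidance genes higher and 9 lower in the wild-type sort and moved no count by over 1.5 times, although same-numbered arrays of the 2 genotypes did not deviate together. Over all genes it gave 858 higher and 653 lower in that sort. Leaving out 1 array gave 5 to 8 guidance genes higher and 5 to 10 lower in the wild-type sort, 4 to 5 and 5 to 6 between positive cells, 1 to 5 and 1 to 7 in the mutant sort, and 1 to 3 and 3 to 4 in the interaction. Over all genes it gave 611 to 843 higher and 405 to 642 lower in the wild-type sort. Between positive cells these were 446 to 854 and 529 to 735, and in the mutant sort 368 to 582 and 257 to 420. In the interaction they were 82 to 196 and 217 to 319. Between negative cells the number of guidance genes was 0 under every setting. The cause of lost calls was not tested. Dim genes, such as Sema3g outside wild-type positive cells, limit what sizes mean.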
